A study of Mus musculus with 20 samples.

Results

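Cytosolic ribosomal proteins build the small (40S) and the large (60S) subunit of the ribosome outside mitochondria. The genes were taken by name: every row of the deposited expression table whose symbol is Rpl or Rps (or Rplp for the stalk proteins) followed by a digit, or Rpsa, leaving out the Rps6k kinases, Rps19bp1 and Rpl7l1. This gave 110 genes of 22564. They comprised 77 subunit genes (31 of the 40S and 46 of the 60S subunit), 6 paralogues of subunit genes (Rpl3l, Rpl22l1, Rpl36al, Rps27l, Rpl39l and Rpl10l) and 27 retrocopies, which are intronless copies made by reverse transcription and mostly annotated as pseudogenes (21 in GENCODE, with 5 annotated as protein coding).

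A ribosome needs most subunit proteins in equal numbers. Most mRNAs of the subunit genes start at a cytosine followed by a run of pyrimidines, the 5′ terminal oligopyrimidine or TOP tract, through which mTORC1 and the RNA-binding protein Larp1 govern their translation. Rpl3l is the exception in striated muscle: it is made in skeletal muscle and heart and takes the place of Rpl3, a protein close to the peptidyl transferase centre of the large subunit.

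RNA of tibialis anterior (TA) muscle, a fast hindlimb muscle, and of heart was compared in 5 groups of mice, with 2 replicate libraries per group and tissue, 10 libraries per tissue. The groups were wild-type C57BL/6N mice, transgenic mice of the same strain label, mdx mice (strain label C57BL/10), trans/mdx mice without UAA and trans/mdx mice with UAA. Transgenic mice carry, from plasmids injected into fertilized eggs, a system that incorporates an unnatural amino acid (UAA) at a stop codon, under a promoter not stated in the labels. The mdx mouse, a model of Duchenne muscular dystrophy, has a nonsense mutation in the dystrophin gene Dmd, and trans/mdx mice, bred from both lines, carry the mutation and the system. Treated trans/mdx mice received 50 mg of the UAA NAEK repeatedly over 4 weeks. Strain and the mdx group cannot be told apart. The trans/mdx mice descend from lines of both strain labels, so strain background can also differ between them and either line. Ages are not in the labels used here. The 2 muscle libraries of trans/mdx mice without UAA carry the genotype label transgenic with the treatment label -UAA, so they were placed by their titles.

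Values are FPKM: the fragments of a gene divided by the length of its transcript and by the mapped fragments of the library. The table gives no counts. Whole-read steps among the lowest values put the depth at 3060000 to 4080000 mapped fragments in heart and 1960000 to 2560000 in muscle. A subunit gene then rested on a median of 55.6 fragments in heart and 54.3 in muscle, for which counting error alone gives a coefficient of variation (CV) of 13.4% and 13.6%. The median CV of a subunit gene over the 10 libraries was 42.8% in heart and 31.9% in muscle. Marker genes matched the tissue labels. In heart 5 cardiomyocyte markers summed to 1422 to 2920 FPKM, and in muscle to 3.53 to 125. The sum of 5 markers of fast skeletal fibres was 12428 to 24268 FPKM in muscle but 63.0 to 151 in heart. In 3 libraries values stood apart from those of the same tissue: heart mdx replicate 2 and muscle wild-type replicate 2, with the highest subunit gene levels, and heart trans/mdx without UAA replicate 1, with the highest FPKM sum of its tissue, 171689. Results that rest on them are also given without them, in most group comparisons as medians only.

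TOP tracts could be looked up for 57 of the 77 subunit genes that have an entry in a RefSeq promoter table (build GRCm38.p6, 250 bases before to 50 bases after each start). A C exactly at the annotated start followed by at least 4 pyrimidines (C or T) was present in 13 of the 57 genes, or 22.8%, against 3.01% of the 27025 genes of the table. Within 5 bases of the start on either side, such a tract was present in 27 of the 57, or 47.4%, against 21.2% of all genes. Only the sense strand was searched, since the tract is a feature of the transcript. The 30 bases around the start (15 before and 15 from the start on, 5′ to 3′ on the gene's strand) are shown for 4 genes that have the tract, with the tract in capitals. They are followed by 4 genes chosen from those without it at the annotated start, of which Rpl3l, Rpl36al and Rps28 did not overlap between the tissues and Rpl23 was higher in heart. Rps6 encodes the protein phosphorylated downstream of mTORC1, Rps27 and Rps18 are small-subunit proteins and Rpl28 is a large-subunit protein.
Rps6 (chr4:86857353-86857382, minus strand): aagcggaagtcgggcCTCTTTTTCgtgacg
Rps27 (chr3:90213634-90213663, minus strand): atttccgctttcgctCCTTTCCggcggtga
Rps18 (chr17:33955651-33955680, minus strand): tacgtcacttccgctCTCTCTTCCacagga
Rpl28 (chr7:4792950-4792979, plus strand): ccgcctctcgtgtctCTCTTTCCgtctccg
Rpl3l (chr17:24727811-24727840, plus strand): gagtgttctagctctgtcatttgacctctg
Rpl36al (chr12:69184053-69184082, minus strand): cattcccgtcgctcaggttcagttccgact
Rps28 (chr17:33824548-33824577, minus strand): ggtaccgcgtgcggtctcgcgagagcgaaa
Rpl23 (chr11:97782425-97782454, minus strand): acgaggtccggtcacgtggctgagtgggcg
The tracts of Rps6, Rps27, Rps18 and Rpl28 are 9, 7, 9 and 8 bases long. An absent tract says only that these letters are not at the annotated start.

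Upstream of its start, Rpl3l holds the palindrome CAGCTG, the core of an E-box of the kind that MyoD and related muscle factors bind. It is shown in capitals in the 90 bases before the start.
Rpl3l upstream (chr17:24727736-24727825, plus strand): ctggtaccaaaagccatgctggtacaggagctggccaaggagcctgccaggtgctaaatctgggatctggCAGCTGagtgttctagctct
The same 6 letters, which read alike on both strands, occur anywhere in the 300-base window of 18.3% of the genes of the promoter table and in 2 of the 57 subunit genes, Rpl6 and Rpl35. Of the 6 paralogues, 2 hold them, Rpl3l and Rpl10l. Binding was not measured.

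Subunit genes were measured throughout. In heart 76 of the 77, and in muscle all 77, had a mean of 1 FPKM or more, and 59 and 73 had a mean of 10 FPKM or more. The level differed widely between genes. In heart the 3 highest were Rpl26 at 86.9 ± 20.3 FPKM (SD, n = 10), Rps24 at 82.7 ± 28.9 and Rps29 at 78.4 ± 40.2. In muscle they were Rps24 at 95.8 ± 20.5 FPKM (SD, n = 10), Rps29 at 91.8 ± 19.0 and Rps26 at 83.2 ± 20.9. Neighbours in these orders differed by less than 1 SD. At the lower end stood Rpl37 (4.29 ± 2.47 FPKM) and Rps20 (2.43 ± 0.93) in heart, and Rpl39 (7.74 ± 3.81) and Rpl3 (4.65 ± 2.52) in muscle. The row named Rpl24 was lowest in both tissues, at 0.98 ± 0.44 and 1.43 ± 0.35 FPKM, but its deposited Ensembl ID is the one that GENCODE names Zbtb11, so it may not hold Rpl24. Further, the deposited position of 19 of 83 subunit and paralogue genes covers more than 2 times the annotated gene, so that neighbouring transcripts may share their values. Among them are Rpl5, Rpl13, Rpl13a, Rpl15, Rpl19, Rpl23a, Rpl30, Rps15, Rps18, Rps25 and Rps28.

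**Figure D1:**
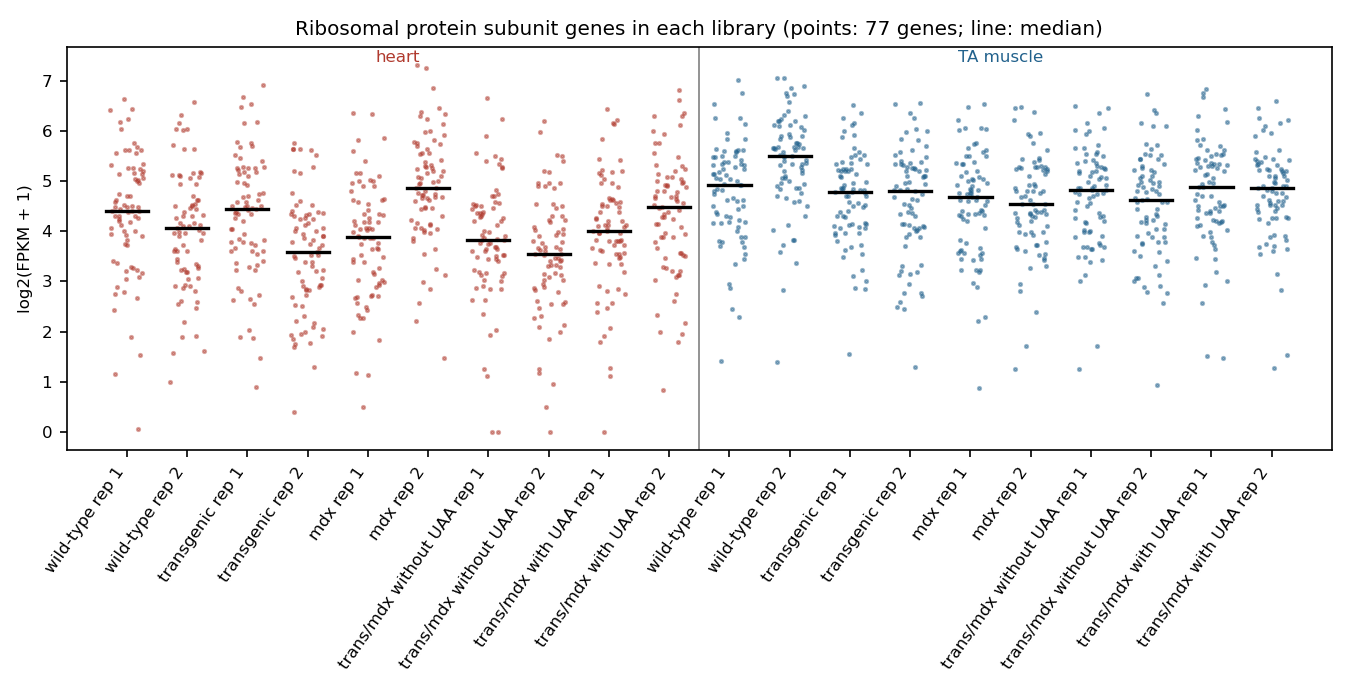
Level of the 77 subunit genes in each of the 20 libraries as log2(FPKM + 1), heart on the left and TA muscle on the right. Each point is a gene and the line is the library's median. Muscle wild-type replicate 2 and heart mdx replicate 2 have the highest medians of their tissues, 44.4 and 28.1 FPKM.

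The median subunit gene stood at 10.7 to 28.1 FPKM in the heart libraries and at 22.4 to 44.4 FPKM in the muscle libraries. In heart, wild-type libraries had medians of 20.3 and 15.7 FPKM, transgenic 20.7 and 11.0, mdx 13.8 and 28.1, trans/mdx without UAA 13.2 and 10.7, and trans/mdx with UAA 15.2 and 21.4. In muscle the medians were 29.3 and 44.4 FPKM in wild-type, 26.6 and 27.0 in transgenic, 24.6 and 22.4 in mdx, 27.3 and 23.6 in trans/mdx without UAA, and 28.5 and 27.9 in trans/mdx with UAA. Heart mdx replicate 2 was the only heart library within the muscle range, and the next highest heart library, at 21.4 FPKM, lay below the lowest muscle library. The 40S and 60S genes had library medians of 10.0 to 26.1 and 11.0 to 31.4 FPKM in heart, and 19.7 to 44.3 and 26.2 to 44.7 FPKM in muscle.

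Together the 110 genes took 0.822 to 1.91% of the FPKM sum in heart and 1.43 to 1.896% in muscle. The denominator differs between the tissues. Mitochondrially encoded genes accounted for 43.3 to 59.8% in heart libraries but 21.9 to 31.3% in muscle libraries. The Lars2 row accounted for 5.28 to 10.3% in heart libraries but 7.33 to 19.2% in muscle libraries. With both left out of the sum, the 110 genes took 2.53 to 3.71% in heart and 2.57 to 2.84% in muscle, and the order of the tissues was reversed: the median library had 3.08% in heart and 2.73% in muscle. In bulk tissue, fewer cells of a type and less RNA per cell cannot be told apart.

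**Figure D2:**
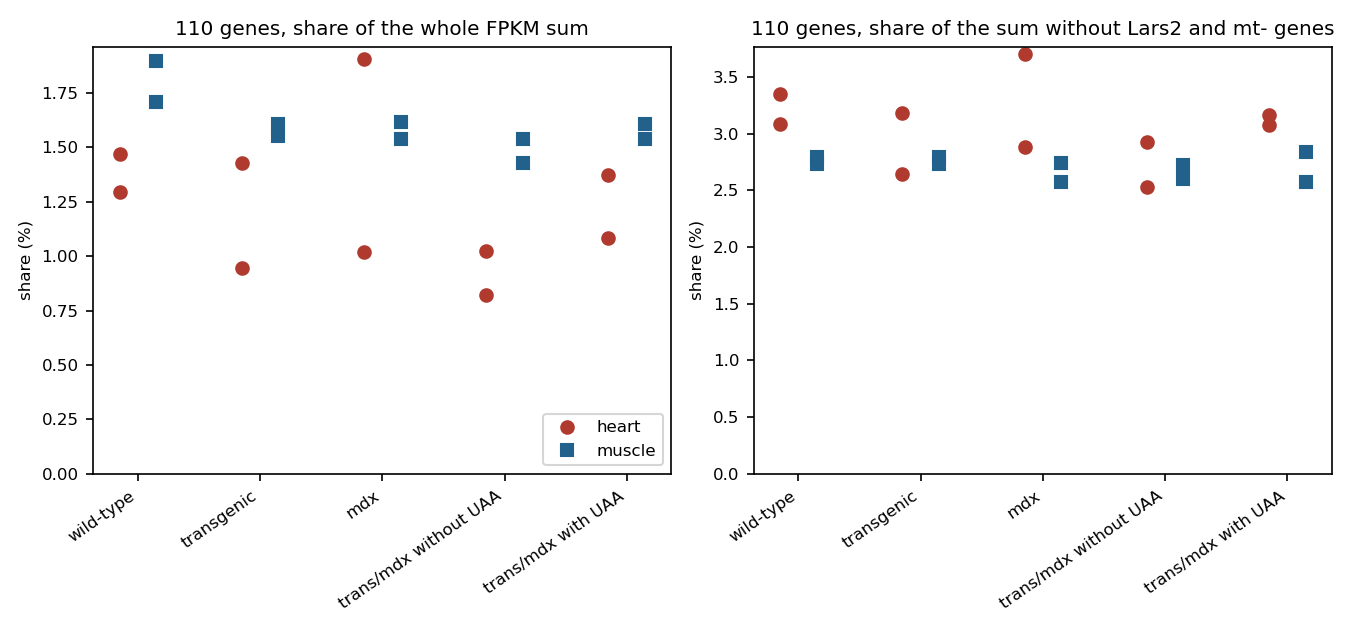
Share of the 110 genes in the FPKM sum of each library (left) and in the sum without Lars2 and mitochondrially encoded genes (right), by group. Circles are heart and squares muscle libraries. On the left the heart range (0.822 to 1.91%) reaches below the muscle range (1.43 to 1.896%), and the ranges overlap in the opposite order on the right (2.57 to 2.84% against 2.53 to 3.71%).

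Heart and muscle were compared in a fit of all 20 libraries (limma on log2(FPKM + 1), Benjamini-Hochberg adjustment over all 10085 genes tested, threshold 0.05). Of the 110 genes, 86 passed the filter of 1 FPKM in at least 2 libraries. As deposited, 54 of the 86 were higher in muscle, where 31.2% of all genes tested were, and 2 were higher in heart, where 10.4% of all genes were. The members' median log2 difference, heart minus muscle, was -0.73, and that of all genes tested was -0.25. By class, 20 of 31 genes of the 40S subunit and 30 of 46 of the 60S subunit were higher in muscle, with medians of -0.73 in both, and all 4 paralogues tested were, with a median of -1.47. Of these paralogues, Rpl22l1 passed the filter only with its muscle libraries. Of 5 retrocopies tested none was called, at a median of -0.088. Without the 3 libraries that stood apart the counts were again 54 and 2.

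Most of these calls depended on how libraries were scaled. Scaled to the FPKM sum without Lars2 and mitochondrial genes, 14 members were higher in muscle and 20 higher in heart, against 14% and 28.7% of all genes, and the members' median was -0.022, beside 0.14 for all genes. Scaled by median of ratios, 31 were higher in muscle and 9 in heart, against 20.8% and 19.3% of all genes, with a median of -0.33. The sign of the difference flipped between scalings in 31 of the 86. In the scaling without Lars2 and mitochondrial genes the members called higher in heart outnumbered those called higher in muscle, and their shares lay near those of all genes.

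**Figure D3:**
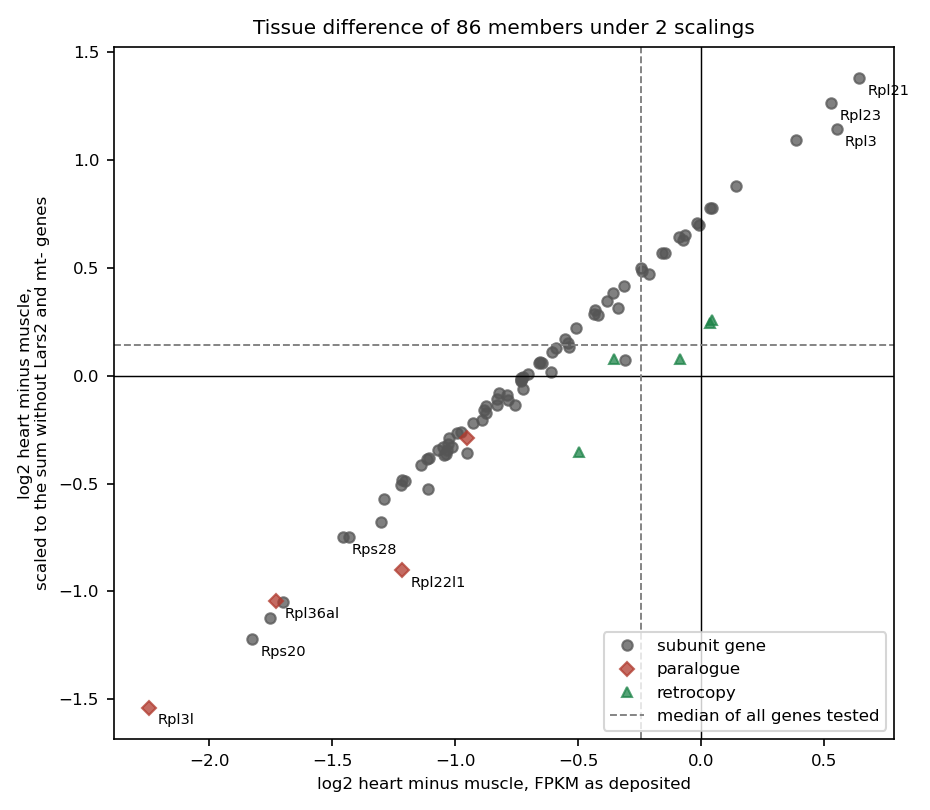
Log2 difference, heart minus muscle, of the 86 members tested, with FPKM as deposited on the x axis and scaled to the sum without Lars2 and mitochondrial genes on the y axis. Circles are subunit genes, diamonds paralogues and triangles retrocopies, and dashed lines are the medians of all genes tested (-0.25 and 0.14). Rpl3l lies far at the muscle end and Rpl21 and Rpl23 at the heart end on both axes.

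In every one of 5 scalings (as deposited, median of ratios, sum without Lars2 and mitochondrial genes, quantile, and centred on the median), 14 members were called higher in muscle and 2 higher in heart, or 16.3% and 2.33% of the 86, where 13% and 10.4% of all genes were. Among the 14 were the paralogues Rpl3l, Rpl36al and Rpl22l1, the small-subunit genes Rps2, Rps12, Rps14, Rps15, Rps20 and Rps28, and the large-subunit genes Rpl8, Rpl13 and Rplp1. Rpl22l1 passed the filter only with its muscle libraries, since its highest heart values were 1.83 and 0.91 FPKM and its heart median was 0. Its call thus sets entries of 0 against a few fragments. The 2 were the large-subunit genes Rpl21 and Rpl23. In 6 genes, 6.98% of the members tested, every muscle library lay above every heart library (among them Rpl3l, Rps20, Rpl36al, Rps28 and Rpl4), near the 7.82% of all genes. No member had every heart library above every muscle library, which 2.84% of all genes did.

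Among small-subunit genes the largest difference was that of Rps20, a protein of the small subunit's head (gene at chr4:3831334-3835665). Its levels were 1.17, 2.76 and 3.64 FPKM (lowest, median, highest of 10) in heart and 7.36, 9.97 and 17.3 FPKM in muscle. The tissues did not overlap, and the log2 difference was -1.82 (SE 0.19, adjusted p = 4.14e-07, limma). Rps28, one of the Diamond-Blackfan anaemia genes, stood at 5.06, 9.75 and 18.6 FPKM in heart and at 22.5, 24.6 and 49.8 FPKM in muscle, again without overlap, with a difference of -1.46 (SE 0.21, adjusted p = 2.08e-05). Rps14 stood at 1.18, 5.84 and 16.5 FPKM in heart and at 7.65, 20.5 and 34.7 FPKM in muscle. Its highest heart libraries overlapped the muscle range, and the difference was -1.70 (SE 0.32).

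Rps27 and Rps16 were also among the 8 largest differences (-1.75, SE 0.42, and -1.30, SE 0.34), but neither was called once Lars2 and mitochondrial genes were left out of the sum (adjusted p = 0.106 and 0.158). The Rps27 value was below that of 1 fragment in 2 heart libraries, at 0.0337 FPKM in wild-type replicate 1 and 0.000558 in trans/mdx without UAA replicate 1, while it reached 14.1 FPKM in mdx replicate 1. Rps16 was listed at 0 in heart trans/mdx with UAA replicate 1. An entry of 0 for a gene that every cell uses can be a failed estimate, so zeros are described here as listed at 0.

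Rpl21 and Rpl23, both proteins of the large subunit, were the members higher in heart. Rpl21 stood at 45.04, 70.7 and 78.7 FPKM in heart and at 33.4, 41.0 and 49.7 FPKM in muscle, and its log2 difference was 0.64 (SE 0.15, adjusted p = 0.00171, limma). Rpl23 stood at 30.1, 55.4 and 82.1 FPKM in heart and at 27.4, 40.2 and 45.04 FPKM in muscle, a difference of 0.53 (SE 0.15, adjusted p = 0.0102). In both genes the lowest heart libraries fell within the muscle range.

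The stalk proteins Rplp0, Rplp1 and Rplp2, which recruit elongation factors, were all 3 higher in muscle as deposited (-0.99, SE 0.19; -1.11, SE 0.22; -0.83, SE 0.25), but without Lars2 and mitochondrial genes in the sum only Rplp1 was called (adjusted p = 0.042, with 0.0738 for Rplp0 and 0.73 for Rplp2). Rpl5 and Rpl11, which carry the 5S RNA and bind Mdm2 when assembly fails, had differences of -0.066 (SE 0.15) and -0.59 (SE 0.20). Rpl11 was called as deposited, but the sign of both flipped without Lars2 and mitochondrial genes, where Rpl5 was called higher in heart (0.65, adjusted p = 5.15e-05).

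Rpl3l gave the largest difference of all members (gene at chr17:24727820-24736143, plus strand). In muscle it stood at 39.3 and 77.5 FPKM in wild-type, 45.6 and 49.9 in transgenic, 42.8 and 38.0 in mdx, 42.1 and 41.8 in trans/mdx without UAA, and 48.6 and 44.1 in trans/mdx with UAA. In heart it stood at 15.3 and 10.4 FPKM in wild-type, 11.8 and 11.3 in transgenic, 5.05 and 11.7 in mdx, 5.24 and 4.04 in trans/mdx without UAA, and 10.1 and 10.8 in trans/mdx with UAA. Every muscle library was above every heart library, and the log2 difference, heart minus muscle, was -2.24 (SE 0.17, adjusted p = 4.60e-09, limma). It was -1.54 with Lars2 and mitochondrial genes left out of the sum.

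Rpl3, the parent gene on chr15:80077791-80091868, did not separate the tissues. In muscle its values were 3.90 and 6.08 FPKM in wild-type, 6.18 and 4.43 in transgenic, 3.62 and 9.80 in mdx, 2.26 and 6.45 in trans/mdx without UAA, and 1.86 and 1.89 in trans/mdx with UAA. In heart they were 7.22 and 5.96 FPKM in wild-type, 11.2 and 1.44 in transgenic, 3.82 and 14.6 in mdx, 7.76 and 3.85 in trans/mdx without UAA, and 9.31 and 9.98 in trans/mdx with UAA. The tissues overlapped, and the difference of 0.55 (SE 0.29) did not pass (adjusted p = 0.146), whereas it did with the sum without Lars2 and mitochondrial genes (1.15, adjusted p = 0.00224).

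**Figure D4:**
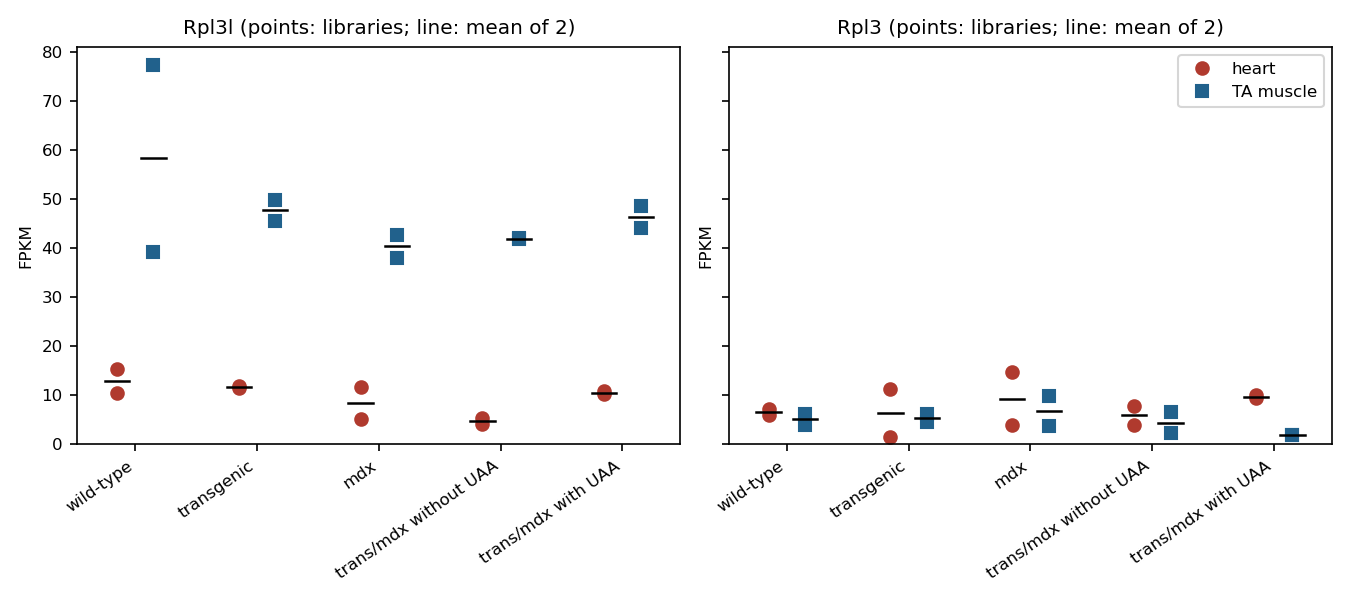
FPKM of Rpl3l (left) and its parent Rpl3 (right) by group. Circles are heart and squares TA muscle libraries, and the line is the mean of the 2 libraries. Rpl3l lies at 38.0 FPKM or more in every muscle library and at 15.3 or less in every heart library, while the Rpl3 values of the tissues overlap.

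A ratio within a library does not depend on its scaling, apart from the pseudocount. Of the FPKM of Rpl3l and Rpl3 together, Rpl3l made up 56.9 ± 13.8% in heart (SD, n = 10, range 40.3 to 88.8%) and 90.9 ± 5.09% in muscle (n = 10, 79.5 to 96.3%). The highest heart value, in transgenic replicate 2, where Rpl3 was at 1.44 FPKM, fell within the muscle range. The log2 ratio of Rpl3l to Rpl3, each plus 1 FPKM, was 0.39 ± 0.81 in heart and 3.19 ± 0.69 in muscle (n = 10 each). The difference of -2.79 had a two-sided permutation p of 6e-05, or 0.00024 adjusted over the 4 paralogue pairs tested.

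Rpl36al, a paralogue of Rpl36a, was at 3.28, 6.78 and 13.2 FPKM in heart and at 13.4, 25.1 and 42.4 FPKM in muscle, without overlap (difference -1.73, SE 0.22, adjusted p = 6.23e-06, limma). Rpl36a itself differed by -0.73 (SE 0.20), and the log2 ratio of the pair differed by -0.99 (permutation p = 0.0187, adjusted p = 0.0249). With heart and muscle libraries blocked by replicate number, which the labels do not tie to a mouse, this ratio did not pass (adjusted p = 0.0729, exact test). Rps27l, a p53 target in human and mouse cells, differed by -0.95 (SE 0.30, adjusted p = 0.0175), and its ratio to Rps27 differed by 0.80, which did not pass (permutation p = 0.255). Rpl39l and Rpl10l, paralogues known from the testis, were listed at 0 in all 20 libraries.

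Rpl22l1, whose transcript is repressed by its parent Rpl22 in mouse cells, was low throughout. In heart it was listed at 0 in 8 of 10 libraries, with 0.91 FPKM in transgenic replicate 2 and 1.83 in trans/mdx without UAA replicate 2. In muscle it stood at 2.91 and 2.43 FPKM in wild-type, 1.54 and 1.49 in transgenic, 4.08 and 2.97 in mdx and 2.77 and 2.83 in trans/mdx with UAA, but was listed at 0 in both libraries of trans/mdx without UAA. These are levels of a few fragments. Against the 3 groups with which trans/mdx without UAA was compared in muscle, the unadjusted p was 6.32e-05 for mdx, 0.00323 for transgenic and 0.000183 for trans/mdx with UAA, and the adjusted p was 0.381, 1 and 0.953 (limma). With a pseudocount of 0.1 FPKM the comparison with mdx passed (adjusted p = 0.0311). The parent Rpl22 stood at 40.3 and 45.5 FPKM in trans/mdx without UAA and at 31.6 to 59.0 FPKM over all muscle libraries.

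Several members serve as reference genes in quantitative PCR. Among 10 of them, 6 were called higher in muscle as deposited (Rplp0, Rpl13a, Rps18, Rpl32, Rpl4 and Rpl27) and 0 in heart. Of all genes, 31.2% and 10.4% were. The median difference was -0.73 over the 10, beside -0.25 for all genes. The call of Rpl13a was lost when 12 of the 20 libraries were left out singly. Rpl19 differed by 0.14 (SE 0.16, adjusted p = 0.516) and stood at 39.6, 59.7 and 88.5 FPKM in heart and at 38.1, 50.2 and 83.3 FPKM in muscle, with CVs of 27.5% and 25.9% over the libraries. Rpl4 had CVs of 20.9% in heart and 21.1% in muscle, but its tissues did not overlap, at 31.1 to 55.4 FPKM and 60.04 to 115 FPKM. The CV of Rpl13a was 50.5% in heart and 39.3% in muscle, and that of Rplp0 was 43.9% and 30.2%. Rps18 and Rpl13a changed sign, at 0.0071 and 0.064, without Lars2 and mitochondrial genes in the sum, and Rpl19 was then called higher in heart (0.88). Of the 10, 0 were then higher in muscle and 2 in heart, where 14% and 28.7% of all genes were. Their median was -0.036, beside 0.14 for all genes.

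Of 16 Diamond-Blackfan anaemia genes, the ribosomal protein genes mutated in that human red cell disorder, 9 were higher in muscle and none higher in heart as deposited, where 31.2% and 10.4% of all genes were, with a median of -0.66 beside -0.25 for all genes. Without Lars2 and mitochondrial genes in the sum, 1 was higher in muscle and 5 in heart, with a median of 0.036 beside 0.14. Outside the name rule, the ribosome components Fau (-0.70, SE 0.19, adjusted p = 0.00743, limma) and Gnb2l1, the gene of the scaffold protein Rack1 (-1.31, SE 0.20, adjusted p = 3.51e-05), were higher in muscle as deposited, and without Lars2 and mitochondrial genes Gnb2l1 was called (-0.62) while Fau was not (0.0091, adjusted p = 0.969).

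Genes that act on ribosomes were compared on the same scale, as deposited, where 31.2% of all genes were higher in muscle and 10.4% in heart. Of 9 elongation factor and related genes, 5 were higher in muscle and none in heart. Eef1a2, the form of the elongation factor that adult muscle uses, was at 51.5 to 107 FPKM in heart and 123 to 261 FPKM in muscle (-1.20, SE 0.15, adjusted p = 5.46e-06, limma), while the widely expressed Eef1a1 differed by 0.38 (SE 0.17, adjusted p = 0.0852). Of 13 eIF3 subunit genes, 8 were higher in muscle. Of 17 genes of mTORC1 signalling and TOP mRNA control, 11 were higher in muscle, among them Larp1 (-1.52, SE 0.18) and the cap-binding inhibitor Eif4ebp2 (-2.07, SE 0.19), and none in heart. Of 28 ribosome biogenesis genes, 8 were higher in muscle, while Rrs1 (0.51, SE 0.19) and Ncl, the nucleolar protein nucleolin (0.74, SE 0.15), were higher in heart. The share of biogenesis genes higher in muscle lay near that of all genes. Scaled to the sum without Lars2 and mitochondrial genes, where 14% of all genes were higher in muscle and 28.7% in heart, the genes higher in muscle and in heart were 4 and 3 of the elongation genes, 2 and 2 of the eIF3 genes, 4 and 1 of the mTORC1 and TOP genes, and 0 and 6 of the biogenesis genes.

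The tissue difference was set beside features of the genes. Of the 77 subunit genes, 30 hold an annotated small nucleolar RNA gene inside on the same strand, and their median difference was -0.65, beside -0.73 in the other 47. Across the 77 genes, which are not independent replicates, Spearman's rho between transcript length (345 to 5179 bases) and the difference was 0.11. The length was that of the longest transcript marked as principal in the annotation, or of the longest other transcript where none was marked. The row named Rpl24 entered with 4920 bases, the length under its deposited ID. The subunit genes lie on 19 chromosomes.

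The 5 groups were compared within each tissue in a fit of its 10 libraries, to see whether mdx, the transgene, their cross or the UAA treatment changed the ribosomal protein mRNAs. Of the 83 members tested in heart and 86 in muscle, none passed in any of 10 comparisons (limma, adjusted p under 0.05), in each of which 0 or 1 gene of all those tested passed, 0.0121% at most. At an unadjusted p under 0.05, the members called were 2, 2, 3, 16 and 6 of 83 in heart (mdx against wild-type, transgenic against wild-type, trans/mdx without UAA against transgenic and against mdx, and with against without UAA), beside 2.65%, 3.37%, 4.17%, 5.79% and 6.01% of all genes. In muscle, in the same order, they were 21, 14, 2, 5 and 3 of 86, beside 10.1%, 9.91%, 3.79%, 5.33% and 3.99%. Comparisons that share a group share its 2 libraries.

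**Figure D5:**
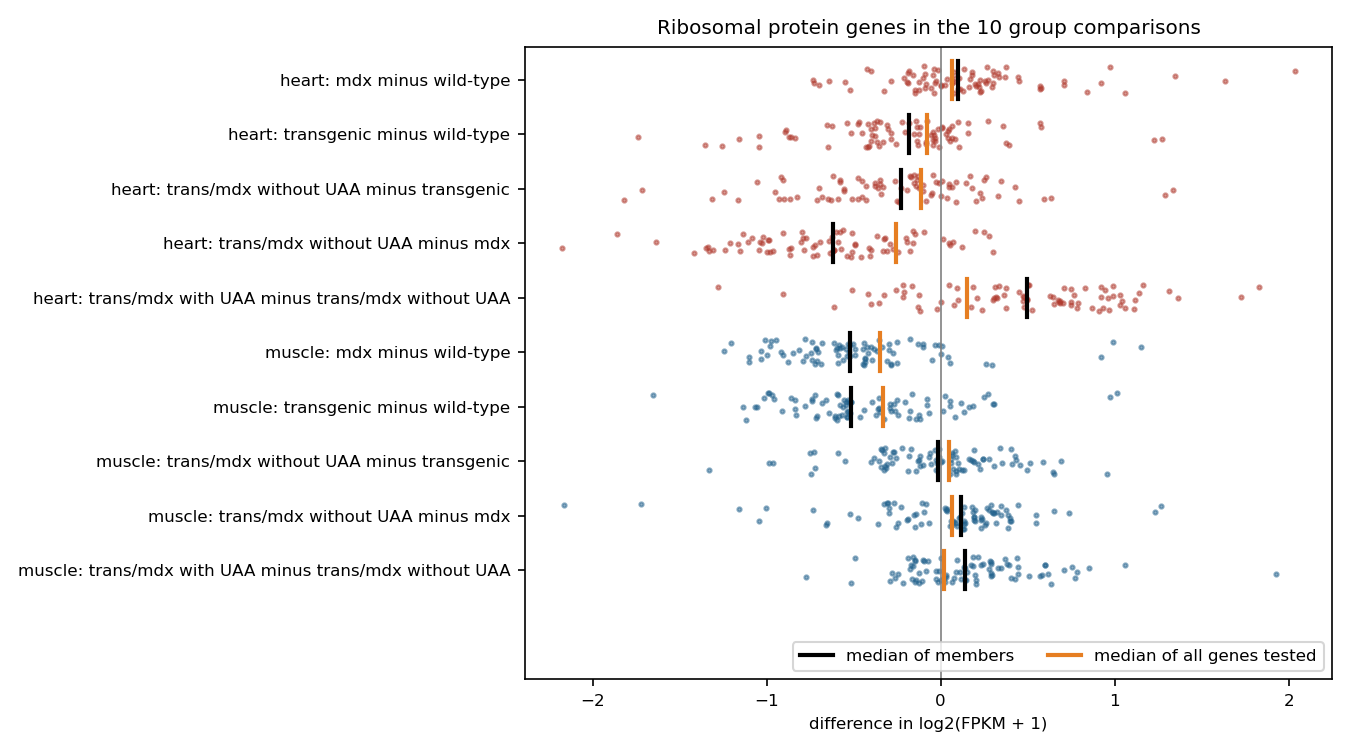
Log2 difference of each member in the 10 group comparisons, heart above and muscle below. Points are members, the black line their median and the orange line the median of all genes tested. The members' medians lie furthest from 0 in heart trans/mdx without UAA minus mdx (-0.62), in both muscle comparisons with wild-type (-0.52) and in heart with minus without UAA (0.50), and in each the median of all genes lies on the same side.

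In heart, 34 of 83 members were above in both libraries of trans/mdx with UAA relative to both without UAA, or 41.0%, where 23.6% of all genes were, and 2 were below in both, where 8.27% of all genes were. The members' median difference was 0.50 and that of all genes 0.15. Rpl23a, a large-subunit protein at the exit tunnel, stood at 30.2 and 60.5 FPKM in treated and at 21.7 and 12.7 in untreated trans/mdx hearts (1.31, SE 0.52, adjusted p = 0.778). The values of Rpl3l, given above, differed by 1.03 (SE 0.44, adjusted p = 0.803). Without trans/mdx without UAA replicate 1, the medians were 0.60 for members and 0.32 for all genes. Scaled to the sum without Lars2 and mitochondrial genes, the members' median was 0.22. The subunit medians with UAA (15.2 and 21.4 FPKM) lay within the range of the wild-type, transgenic and mdx hearts (11.0 to 28.1 FPKM). The 7 macrophage markers summed to 12.7 and 17.1 FPKM with UAA and to 10.6 and 6.39 without, with 0 or 1 of them listed at 0 in a library. The 5 markers of fast skeletal fibres summed to 108 and 122 FPKM with UAA, none at 0, and to 82.5 and 63.0 without, where 2 were at 0. Endothelial markers were also higher with UAA, at 28.9 and 30.7 FPKM against 28.5 and 26.7. The sums of the other marker lists overlapped. Their part in the result was not tested.

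Relative to mdx hearts, 31 of 83 members were below in both trans/mdx libraries without UAA, or 37.3%, where 25.8% of all genes were, and 0 were above in both, where 4.5% of all genes were. The members' median difference was -0.62, against -0.26 for all genes. Rps15 stood at 13.2 and 17.7 FPKM without UAA and at 30.3 and 41.8 in mdx (-1.17, SE 0.41, adjusted p = 0.778), and Rpl15 at 3.10 and 5.93 against 10.1 and 15.2 FPKM (-1.34, SE 0.52, adjusted p = 0.825). Without trans/mdx without UAA replicate 1 the members' median was -0.79, beside -0.42 for all genes. The members' median rested on heart mdx replicate 2. Without it that median was -0.11 and that of all genes -0.0064, 22 members were above and 32 below the remaining mdx library in both libraries without UAA, where 26.5% and 30.8% of all genes were, and 2 of 83 members were called at an unadjusted p under 0.05. Heart mdx replicate 2 also had the highest summed levels in heart of macrophage markers, of which 0 were listed at 0 there (29.5 FPKM, with 6.39 to 22.4 in the other heart libraries). It was likewise highest for fibroblast markers (84.8, with 33.0 to 60.5) and erythrocyte markers (286, with 97.8 to 184). The same held for cardiomyocyte (2920 FPKM), endothelial (39.1) and fast skeletal fibre markers (151), but not for adipocyte or proliferating-cell markers. Its shares of mitochondrially encoded genes (43.3%) and of Lars2 (5.28%) were the lowest in heart. The part of all these in the result was not tested.

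In heart mdx minus wild-type, 8 of 83 members were above in both libraries and 2 below in both, against 16.6% and 8.9% of all genes. Rpl39, at the exit tunnel of the large subunit, stood at 4.05 and 13.0 FPKM in mdx and at 2.69 and 1.96 in wild-type (1.35, SE 0.55, adjusted p = 1). The retrocopy Rps12-ps3 stood at 1.59 and 5.53 FPKM in mdx and was listed at 0 in both wild-type hearts. Without heart mdx replicate 2 the members' median went from 0.10 to -0.40, and that of all genes from 0.065 to -0.18.

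In transgenic hearts 16 of 83 members were below both wild-type libraries and 2 above both, against 16.8% and 10.9% of all genes. Rps12 stood at 10.7 and 4.76 FPKM against 21.5 and 16.2 in wild-type (-1.26, SE 0.47, adjusted p = 1), and Rps14 at 1.78 and 2.25 against 8.57 and 9.52 FPKM (-1.74, SE 0.74, adjusted p = 1). Without trans/mdx without UAA replicate 1, the members' median of that group against transgenic hearts was -0.37, beside -0.28 for all genes. In trans/mdx hearts without UAA, with both libraries, 14 members were below both transgenic libraries and 2 above both, against 18.9% and 7.9% of all genes. Rpl30, a small protein of the large subunit, stood at 9.67 and 10.7 FPKM there and at 29.4 and 21.9 in transgenic hearts (-1.24, SE 0.49, adjusted p = 1), and Rpl3l at 5.24 and 4.04 against 11.8 and 11.3 FPKM (-1.16, SE 0.44, adjusted p = 1).

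In muscle, 42 of 86 members were below in both mdx libraries relative to both wild-type libraries, or 48.8%, where 34% of all genes were, and 4 were above, where 4.15% of all genes were. The members' median was -0.52 and that of all genes -0.35. Rpl8, a protein near the peptidyl transferase centre, stood at 30.0 and 18.3 FPKM in mdx and at 48.3 and 67.0 in wild-type (-1.24, SE 0.33, adjusted p = 0.378). Rps25, needed by some viral internal ribosome entry sites, stood at 23.6 and 24.7 FPKM against 47.1 and 52.5 (log2 difference -1.01, SE 0.31, adjusted p = 0.424). Rpl10a stood at 13.1 and 12.2 FPKM against 23.7 and 33.5 (log2 difference -1.10, SE 0.34, adjusted p = 0.424). The retrocopies Rps3a3 (2.50 and 1.36 FPKM against 0.67 and 0) and Rpl9-ps6 (1.66 and 1.80 against 0.89 and 0) had the smallest p in the other direction.

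Transgenic muscle was compared with the same wild-type libraries, and 38 of 86 members were below both, or 44.2%, where 33.8% of all genes were, and 2 above both, where 4.87% of all genes were. The medians were -0.52 and -0.33. Rps13 stood at 14.3 and 5.80 FPKM against 27.1 and 35.6 (log2 difference -1.65, SE 0.47, adjusted p = 0.424), Rpl34 at 14.6 and 25.7 against 43.4 and 43.4 (-1.12, SE 0.34) and Rpl7a at 15.8 and 16.7 against 29.2 and 38.1 FPKM (-0.99, SE 0.31). Both comparisons rested on muscle wild-type replicate 2 in size. Without it the members' median was -0.19 for mdx and -0.12 for transgenic muscle, beside -0.092 and -0.073 for all genes, and scaled to the sum without Lars2 and mitochondrial genes it was -0.072 and -0.091. The 7 macrophage markers summed to 3.35 and 14.96 FPKM in the wild-type libraries, 8.01 and 20.1 in mdx and 12.4 and 19.2 in transgenic muscle, with 0 to 2 of them listed at 0 in a library. The 5 fibroblast markers, none of them at 0, summed to 114 and 212 FPKM in wild-type, 94.4 and 90.2 in mdx and 69.5 and 69.9 in transgenic muscle, so both wild-type libraries were above the other 4. The same held for fast skeletal fibre markers (15811 and 24268 FPKM against 13113 to 15384) and endothelial markers (26.3 and 32.2 against 16.3 to 23.3). It did not hold for cardiomyocyte, macrophage, erythrocyte, adipocyte or proliferating-cell markers. Their part in the result was not tested.

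In trans/mdx muscle without UAA, 9 members were above and 14 below both transgenic libraries (18.8% and 14.3% of all genes), and 20 were above and 12 below both mdx libraries (20.1% and 13.9%), with members' medians of -0.017 and 0.11. Rpl27a stood at 17.1 and 18.5 FPKM without UAA and at 27.9 and 33.2 in transgenic muscle (-0.74, SE 0.30, adjusted p = 1), and Rpl34 at 18.8 and 12.6 FPKM against 29.4 and 36.6 in mdx muscle (-1.05, SE 0.34, adjusted p = 0.927). With UAA, 24 members were above and 5 below both libraries without UAA, or 27.9% and 5.81%, where 17.9% and 14.8% of all genes were. The members' median was 0.14 and that of all genes 0.018. The macrophage markers summed to 4.13 and 3.63 FPKM with UAA and to 8.54 and 7.61 without, with 1 to 3 of the 7 at 0. The 5 adipocyte markers, none at 0, summed to 371 and 266 against 419 and 561. Erythrocyte markers (43.4 and 51.8 FPKM against 62.0 and 64.0) and fibroblast markers (33.1 and 53.2 against 53.8 and 59.2) were also lower with UAA. The sums of the other marker lists overlapped. Their part in the result was not tested. Rps10, a Diamond-Blackfan anaemia gene, stood at 16.5 and 25.2 FPKM in treated and at 7.69 and 11.1 in untreated trans/mdx muscle (1.06, SE 0.39, adjusted p = 1).

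Whether a group difference was itself different in muscle and heart was tested in the fit of 20 libraries. None of 86 members passed in any of 5 such tests, and 0 of all genes did. At an unadjusted p under 0.05, 7, 1, 4, 8 and 1 members were called for mdx against wild-type, transgenic against wild-type, trans/mdx without UAA against transgenic and against mdx, and with against without UAA, beside 6%, 4.63%, 3.89%, 5.61% and 4.56% of all genes. For Rpl39 the mdx difference was 2.34 lower in muscle on the log2 scale (-2.34, SE 0.73, adjusted p = 0.795). For Rps15 the difference of trans/mdx without UAA from mdx was 1.51 higher in muscle (SE 0.46, adjusted p = 0.717). For Rpl22l1 the unadjusted p of the same test was 0.000112 and the adjusted p 0.344 (limma). Its value of -2.92 became -3.67 without heart trans/mdx without UAA replicate 1, which left 1 heart library of that group, at 1.83 FPKM.

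Retrocopies added little. Of the 27, 13 were listed at 0 in every library, and together they held 0.147 to 0.636% of the FPKM of the 110 genes in heart and 0.105 to 0.705% in muscle. The highest was Rpl23a-ps3, annotated as a processed pseudogene, at a mean of 2.72 FPKM in heart (highest 5.84) and 4.18 in muscle (highest 8.24). In heart it stood at 0.70 FPKM and listed at 0 in the 2 trans/mdx libraries without UAA, 3.70 and 2.96 with UAA, 5.84 and 1.69 in transgenic, 2.24 and 2.22 in mdx, and 5.34 and 2.53 in wild-type. No comparison of it passed (lowest adjusted p = 0.599, limma). Retrocopies are near-identical to their parent genes, and how the authors assigned reads that fit both is not given in the sources used here, so these values are uncertain.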

How the data were processed

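RNA of heart and TA muscle was sequenced after ribosomal RNA depletion with a directional kit, per the labels' protocols. The authors deposited FPKM per gene in 1 table of 20 libraries. Per the submitters' processing notes, the tools were HISAT2 2.0.4, cutadapt 1.9.3, Cuffdiff and Cufflinks, with mm10 as the build, and no role is stated. The sources used here do not give the annotation, filters or strand use. FPKM were not scaled further in the main fit. 1 emptied row was not analysed here.

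Groups came from the labels. The members and lists were chosen with earlier results of these data known. Genes at 1 FPKM or more in at least 2 libraries fitted were tested on log2(FPKM + 1) with limma 3.58.1 in R 4.3.3 (moderated test with a mean trend, no block, Benjamini-Hochberg over all genes). Fold changes on this scale understate the change of low genes. The fits had 5 residual degrees of freedom per tissue and 10 over 20 libraries, and were tested on simulated data. Ratios of paralogue pairs were compared with 100000 resamples in a two-sided permutation test (scipy 1.17.1). The labels do not tie a heart to a muscle library of the same mouse, so numbers were not used to pair. Same-numbered heart and muscle libraries did not deviate together (r of -0.02 to 0.01 over 10085 genes), which cannot show whether they share a mouse. The labels' protocols speak of different mice with replicates, without tying each library to a mouse, so p-values measure the spread between these libraries.

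Depth was read from the steps of low values of genes with transcripts of at least 3000 bases. Of these values, 78.6 to 87.9% lay within 4% of the nearest whole number of steps. This tolerance widens as that number grows, so part of the share arises by chance and the depth is approximate. Coordinates are from GENCODE M21 (mm10), 1-based. Genes named with values were the 8 called members of largest change per direction between tissues, the 3 of smallest p per direction in each group comparison where they add to the account, the paralogues with their parents, the PCR reference genes and the highest and lowest subunit genes. Lists of translation genes were fixed with them. Some genes that this rule names are not reported here. Other pseudocounts, filters, scalings, fitted libraries, blocks and left-out libraries were tried.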

Additional observations from a re-analysis of the deposited data

Results flagged for a closer look

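Values of named genes in each tissue were searched for a library far from the other 9, by the gap to its neighbour relative to the range (Dixon's criterion). It singled out 16 of 66 sets, and chance singles out about 1 in 20. In heart mdx replicate 2, 7 genes were high: Rps16 (15.7 FPKM), Rpl22 (78.0), Rpl39 (13.0), Rpl10 (34.7), Rplp0 (46.4), Rpl13a (48.6) and Rps18 (27.97). In muscle wild-type replicate 2, Rpl3l (77.5 FPKM), Rps4x (44.3), Rplp0 (77.6), Rpl4 (115) and the median subunit gene (44.4) were high. These are the libraries named above as standing apart.

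Singled out in other libraries were Rps27 in muscle transgenic replicate 1 (46.9 FPKM, next 20.6), Rpl13a in muscle transgenic replicate 2 (64.6, next 39.6) and Rpl22l1 in heart trans/mdx without UAA replicate 2 (1.83, next 0.91). The log2 ratio of Rpl3l to Rpl3 was 2.34 in heart transgenic replicate 2, where the next highest heart library had 0.99.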

How the results depend on the processing

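The tissue comparison gave 48 to 63 members called when each library was left out in turn, and 56 with all. The setting that moved this count by over 1.5 times was scaling to the sum without Lars2 and mitochondrial genes, with 34. Signs turned there for Rpl39 (0.016), Rpl13a (0.064), Rps18 (0.0071), Rps13 (0.15) and Rps29 (0.38). The difference of Rps29 was 0.061 with median-of-ratios scaling, with or without the replicate block. Leaving out libraries ended the call of Rpl39 in 13 and of Rpl13a in 12 of 20 cases and of no other gene named in that comparison.

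Counts of 0 in the group comparisons became 1 in 4 cases: Rpl22l1 in muscle trans/mdx without UAA minus mdx with a pseudocount of 0.1 FPKM, Rpl22l1 in the difference of that effect between tissues (0 to 1 over the left-out libraries, 1 without heart trans/mdx without UAA replicate 1), and the retrocopy Rpl7a-ps5 in 2 differences of effects, transgenic minus wild-type and trans/mdx without UAA minus transgenic, when no filter was used. Leaving out heart trans/mdx without UAA replicate 1 left that group with 1 library, where Rpl22l1 was at 1.83 FPKM. The cause was not tested. The labels do not tie same-numbered libraries of the 2 tissues to a mouse, so whether the replicate block is a paired test is not known. With it, 54 members were called between tissues and the log2 ratios of Rpl22l1 to Rpl22 (-1.26) and Rpl36al to Rpl36a (-0.99) no longer passed (both adjusted p = 0.0729, exact test). It ended the call of Rpl13a and changed no other call of a gene named above.

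Some uncalled values turned sign. Rpl22, heart minus muscle, was -0.094 without the 3 libraries that stood apart (chosen after seeing the data) and -0.069 to 0.16 over the left-out libraries. For Rpl3l the difference of the transgenic effect between tissues was 0.22 with median of ratios, 0.25 with the sum without Lars2 and mitochondrial genes, 0.31 with quantile scaling and 0.14 centred on the median (chosen after seeing the data). Its muscle mdx effect was 0.035, 0.015 and 0.11 under the first 3, its muscle transgenic effect 0.24, 0.23, 0.26 and 0.11 under the 4, and its difference of muscle trans/mdx without UAA from mdx -0.044 under median of ratios and -0.050 under quantile scaling.

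Ranges over the left-out libraries that cross 0 were, for Rpl3, -0.65 to 1.05 (heart mdx minus wild-type), -1.64 to 0.69 (heart transgenic minus wild-type), -0.90 to 1.42 and -1.26 to 0.44 (heart trans/mdx without UAA minus transgenic and minus mdx), -0.35 to 0.88 and -0.18 to 0.35 (muscle mdx and transgenic minus wild-type), and -0.94 to 0.26 and -1.13 to 0.092 (muscle trans/mdx without UAA minus transgenic and minus mdx). For its differences of effects they were -0.78 to 0.91 (mdx), -0.61 to 1.72 (transgenic), -1.76 to 0.56 and -0.96 to 0.74 (trans/mdx without UAA minus transgenic and minus mdx). For Rpl3l they were -0.38 to 0.13 (heart transgenic), -0.93 to 0.035 and -0.69 to 0.27 (muscle mdx and transgenic), -0.027 to 0.14 (muscle trans/mdx without UAA minus mdx), and -0.34 to 0.73 and -0.57 to 0.39 (differences of the mdx and transgenic effects). In heart trans/mdx without UAA minus mdx they were -0.41 to 0.81 for Rpl6 and -0.82 to 1.37 for Rps21. With minus without UAA in heart they were -2.59 to 0.024 for Rps21 and -1.35 to 0.12 for Rpl36al. The remaining ones were -0.29 to 2.84 for Rps27 (heart transgenic minus wild-type), -0.051 to 0.55 for Rpl23 (muscle transgenic minus wild-type) and -0.10 to 3.11 for Rps16 (difference of the UAA effect). Groups of 2 libraries limit what a group comparison can show.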
